A study of Mus musculus with 3 samples.

Results

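The transcripts of insulin-like growth factor 1 (*Igf1*), its receptor (*Igf1r*) and the binding proteins *Igfbp1* to *Igfbp6* were followed in the embryo proper of E6.5 mouse embryos. These 8 genes were taken by symbol from a table of 23421 genes, and all 8 were found. The table holds 3 libraries, 1 each of wild type, tw18/+ and tw18/tw18, all labelled 129/SvEv and all from matings of tw18/+ mice. The tw18 haplotype carries a deletion on Chr 17 that removes *Ppp2r1a*, the scaffolding subunit of phosphatase PP2A, together with many other genes, so the genotypes differ in all of these genes. The libraries were made from total RNA of tissue that the labels name epiblast and that, by the study's methods, also held the surrounding visceral endoderm. Because each genotype has a single library, the spread between embryos is unknown, differences between genotypes have no replicate check, and no p-value is given. In the study's in situ hybridizations of E6.5 litters, the homozygous embryos were at a slightly earlier stage than their littermates. Whether this held for the sequenced embryos is not stated, and stage and genotype cannot be told apart here. None of the 8 genes lies on Chr 17.

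IGF1 and IGF2 are secreted growth factors that signal through IGF1R, a receptor tyrosine kinase that activates the PI3K/AKT and RAS/ERK pathways. The binding proteins are secreted carriers that hold the ligands with high affinity, limit their access to the receptor and release them when proteases cut the carrier. IGF signaling is known chiefly as a promoter of growth before and after birth, and in the uterus both ligands and several binding proteins are made by the maternal decidua and stroma as well as by the conceptus.

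Levels are given as FPKM, in which the fragments counted on a gene are scaled to its transcript length and to the size of the library, so that genes can be set side by side within a library. Changes are log2 ratios of FPKM without a pseudocount. A gene counted as higher or lower when its log2 ratio reached 1 in that direction and the higher FPKM of the pair was at least 1. The spacing of low values put the depth of tw18/+ at 1.40 times and that of tw18/tw18 at 1.38 times that of wild type. Fragment numbers derived from this spacing are estimates. The 95% intervals (exact Clopper-Pearson) use the fewest fragments that the annotated transcripts with a consensus coding sequence allow. They cover counting error alone, since each genotype has 1 library. PCR copies of a fragment are counted as if they were separate molecules, which can make the intervals too narrow. *Ppp2r1a* measured 146 FPKM in wild type, 81.7 in tw18/+ and 12.8 in tw18/tw18, in the order of the labels. The gene was thus still detected in tw18/tw18, although the deletion removes it, and the source of these fragments was not tested. Rescaling to equal FPKM sums would have added 0.21 to each log2 ratio of tw18/tw18 against wild type.

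In tw18/tw18, *Igf1* and 4 of the 6 binding proteins (*Igfbp3*, *Igfbp4*, *Igfbp5*, *Igfbp6*) were higher than in wild type by a log2 ratio between 1.11 and 2.73, while *Igf1r* was lower by a log2 ratio of -1.16. *Igfbp2*, the most abundant of the 8 in wild type, was also less abundant in tw18/tw18, at 0.530 times the wild-type FPKM, short of the threshold. *Igfbp1* had an FPKM under 1 in every library. Against wild type 5 of the 8 genes were thus higher and 1 lower, where 15.1% of the 12917 genes tested were higher and 6.94% lower. The 8 genes were chosen with earlier results of these data known, so each contrast with all genes is a description only. Only 7 of the 8 could be tested, since *Igfbp1* stayed under the FPKM filter. Over all 8 genes the median difference of log2(FPKM + 1) between tw18/tw18 and wild type was 1.22. Over the 7 tested it was 1.43, against -0.0074 over all genes tested. In any pair of libraries 6 of the 8 passed the threshold, where 30.1% of 13118 genes did. The same 5 genes were higher against tw18/+ (background 14.9%), and none was lower by the threshold there (background 5.65%). Both of these comparisons use the same tw18/tw18 library. Between tw18/+ and wild type none of the 8 reached the threshold in either direction, where 4.7% of 12426 genes were higher and 5.02% lower.

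**Figure D1:**
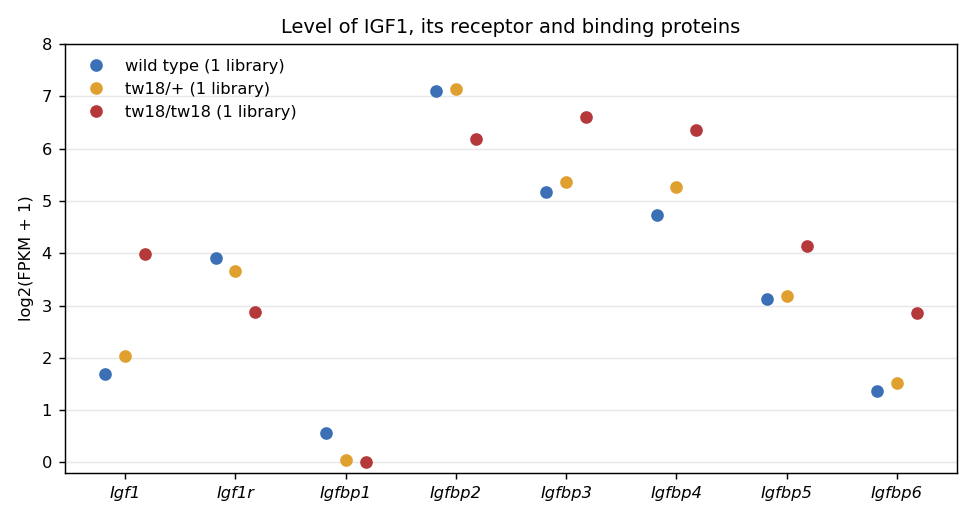
The vertical axis gives log2(FPKM + 1) for each of the 8 genes on the horizontal axis, with 1 point per library (blue wild type, orange tw18/+, red tw18/tw18) and no error bars because each genotype has 1 library. The wild-type and tw18/+ points lie close together for most genes, and the tw18/tw18 point is the highest for *Igf1* and *Igfbp3* to *Igfbp6* and the lowest for *Igf1r*, *Igfbp1* and *Igfbp2*.

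The ligand was the gene with the largest increase of the 8. *Igf1*, on Chr 10 from 87858265 to 87937042 (GRCm38), measured 2.22 FPKM in wild type, 3.09 in tw18/+ and 14.8 in tw18/tw18. The homozygous library thus stood well above both others, which lay near each other. The log2 ratio was 2.73 against wild type (95% counting interval 1.97 to 3.51), a fold of 6.64, and 2.26 against tw18/+ (1.71 to 2.87). Ordered by this ratio, *Igf1* held rank 454 from the top among the 12917 genes tested. Between tw18/+ and wild type the log2 ratio of 0.47 had an interval of -0.46 to 1.37 with the fragments of the shortest transcript, which includes 0, and of 0.24 to 0.71 with those of the longest, which does not. The intervals are wide because the 6 *Igf1* transcripts with a consensus coding sequence run from 651 to 7052 bp, so that its wild-type FPKM stands for between 17 and 228 fragments. An antisense gene, *Igf1os*, overlaps *Igf1*. Although the kit keeps strand, the sources used here do not say whether strand entered the calculation of FPKM, so a share of *Igf1os* in the value cannot be told apart.

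The other ligand, the imprinted *Igf2*, was far more abundant than *Igf1* in each library. Its level was 47.5 FPKM in wild type, 42.0 in tw18/+ and 107 in tw18/tw18, a log2 ratio of 1.17 against wild type. *Igf2* transcripts were 21.4 times as abundant per length as those of *Igf1* in wild type, 13.6 times in tw18/+ and 7.26 times in tw18/tw18. The summed FPKM of both ligands was 49.7, 45.1 and 122 in that order.

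The receptor went the other way. *Igf1r*, on Chr 7 from 67952827 to 68233668, measured 14.1 FPKM in wild type, 11.6 in tw18/+ and 6.30 in tw18/tw18, from about 2351, 2718 and 1455 fragments on a transcript of 11409 bp. The tw18/+ value lay between those of the other libraries, and the step from wild type to tw18/+ was the smaller one. The log2 ratio against wild type was -1.16 in tw18/tw18 (-1.25 to -1.06) and -0.28 in tw18/+ (-0.36 to -0.20). Against tw18/+ the homozygous value was -0.88 (-0.97 to -0.79), short of the threshold, and after rescaling to equal FPKM sums the value against wild type was -0.95, also short of it. The insulin receptor *Insr*, which can pair with IGF1R in hybrid receptors, stood at 5.19 FPKM in wild type, 5.52 in tw18/+ and 6.38 in tw18/tw18, the last at a log2 ratio of 0.30 against wild type. *Igf1r* was therefore 2.71 times as abundant as *Insr* per length in wild type, 2.10 times in tw18/+ and 0.988 times in tw18/tw18. *Igf2r*, the clearance receptor for IGF2, stood at 13.0, 12.6 and 20.4 FPKM, with a log2 ratio of 0.65 that did not reach the threshold.

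**Figure D2:**
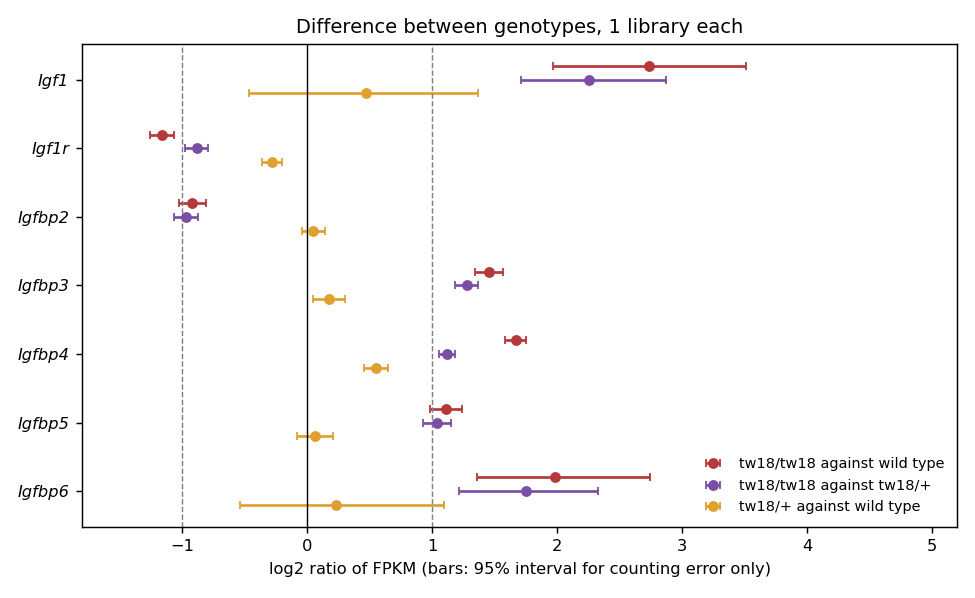
The horizontal axis gives the log2 ratio of FPKM for the 7 members that passed the FPKM filter, with 1 point per pair of libraries, bars for the 95% interval of counting error and dashed lines at the thresholds of -1 and 1. Both tw18/tw18 comparisons lie past 1 for *Igf1* and *Igfbp3* to *Igfbp6*, those of *Igf1r* and *Igfbp2* lie near -1, and the tw18/+ points lie between -0.28 and 0.55.

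The 6 binding proteins spanned the whole range of levels. In wild type the order by FPKM was *Igfbp2*, *Igfbp3*, *Igfbp4*, *Igfbp5*, *Igfbp6* and *Igfbp1*, and tw18/+ kept this order. In tw18/tw18 it was *Igfbp3*, *Igfbp4*, *Igfbp2*, *Igfbp5*, *Igfbp6* and *Igfbp1*. Neighbours in these orders cannot be compared with a replicate spread, but in tw18/+ *Igfbp3* (39.9) and *Igfbp4* (37.4) were close, as were *Igfbp4* (81.1) and *Igfbp2* (71.8) in tw18/tw18.

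Of the 6 genes, 4 lie as 2 pairs of convergent neighbours. *Igfbp2* (72824503 to 72852474, plus strand) and *Igfbp5* (72857932 to 72874884, minus strand) face each other on Chr 1 with 5457 bp between their ends. *Igfbp1* (7197782 to 7202546, plus strand) and *Igfbp3* (7206086 to 7213923, minus strand) do so on Chr 11 with 3539 bp between them. In each pair 1 gene was higher in tw18/tw18 than in wild type and the other was not, although *Igfbp1* was near the limit of detection throughout. The 100 bases before the RefSeq start (GRCm38.p6) are shown for these 4 genes and for *Igfbp4*, the 5 members whose RefSeq start lies within 30 bases of a GENCODE transcript start, so that the members that were higher can be read beside those that were not. Each runs 5′ to 3′ on the strand of its gene, and capitals mark TATNNA, a loose form of the TATA box, read on either strand.
Igfbp1 (chr11:7197687-7197786, plus strand): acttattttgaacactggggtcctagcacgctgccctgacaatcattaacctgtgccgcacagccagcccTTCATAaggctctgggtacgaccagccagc
Igfbp3 (chr11:7213924-7214023, minus strand): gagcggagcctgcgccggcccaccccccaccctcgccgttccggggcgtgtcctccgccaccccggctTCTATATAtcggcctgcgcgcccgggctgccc
Igfbp2 (chr1:72824380-72824479, plus strand): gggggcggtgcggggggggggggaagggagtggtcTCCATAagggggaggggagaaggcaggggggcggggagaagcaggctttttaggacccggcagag
Igfbp5 (chr1:72874866-72874965, minus strand): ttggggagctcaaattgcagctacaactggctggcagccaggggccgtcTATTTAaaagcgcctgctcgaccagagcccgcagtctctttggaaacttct
Igfbp4 (chr11:99041144-99041243, plus strand): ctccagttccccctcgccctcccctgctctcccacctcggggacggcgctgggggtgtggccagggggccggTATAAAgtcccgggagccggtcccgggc

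All 5 windows held TATNNA, which was found in 28.4% of 32851 windows of this length from all genes. The strict TATAAA was found in *Igfbp4* alone, where its first base lies 28 bases before the start, and in 5.56% of all windows. In *Igfbp3* the marked stretch holds 3 overlapping matches on the 2 strands. In *Igfbp1* and *Igfbp2* the match is on the opposite strand. Counted from its first base in the printed stretch, the match lies 65 bases before the start in *Igfbp2* and 51 in *Igfbp5*. It lies 30 bases before the start in *Igfbp1* and 30 to 32 in *Igfbp3*. Whether any of these matches serves as a TATA box was not tested. The GC box GGGCGG was found in *Igfbp2* alone, with 2 matches, and in 24.7% of all windows. None of the 5 windows held CCAAT, found in 18.9% of all windows. The windows of *Igfbp3*, *Igfbp4* and *Igfbp2* held 77%, 75% and 71% G and C, and those of *Igfbp1* and *Igfbp5* 55% each, the median of all windows.

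*Igfbp2*, a carrier that is abundant in embryonic tissues, measured 135 FPKM in wild type, 140 in tw18/+ and 71.8 in tw18/tw18. The wild-type and heterozygous libraries were alike, and the homozygous library held less. The log2 ratio in tw18/tw18 was -0.92 against wild type (-1.02 to -0.81) and -0.97 against tw18/+ (-1.07 to -0.87), and both intervals include the threshold of -1. In tw18/+ the ratio was 0.051 (-0.039 to 0.14).

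*Igfbp3*, which carries most of the circulating IGF of the adult in a complex with the acid-labile subunit, measured 35.2 FPKM in wild type, 39.9 in tw18/+ and 96.5 in tw18/tw18. Its log2 ratio in tw18/tw18 was 1.45 against wild type (1.34 to 1.57) and 1.28 against tw18/+ (1.18 to 1.37). It held the first place among the 8 genes in tw18/tw18, at rank 608 of all genes in that library, compared with rank 2180 in wild type.

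*Igfbp4*, an inhibitory carrier that the protease PAPP-A cleaves, measured 25.5 FPKM in wild type, 37.4 in tw18/+ and 81.1 in tw18/tw18. In tw18/+ its log2 ratio against wild type was 0.55 (0.46 to 0.64), so the tw18/+ value lay between those of the other libraries. In tw18/tw18 the ratio was 1.67 against wild type (1.58 to 1.75) and 1.12 against tw18/+ (1.05 to 1.18). The gene lies on Chr 11 from 99041244 to 99054392, far from *Igfbp1* and *Igfbp3*. Of its 50 bp words, 1.72% occur in other genes, against 0% for each of the other 7 members.

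*Igfbp5*, a carrier that binds extracellular matrix, measured 7.69 FPKM in wild type, 8.06 in tw18/+ and 16.6 in tw18/tw18. The first 2 libraries were alike and the homozygous one held more. The log2 ratio in tw18/tw18 was 1.11 against wild type (0.98 to 1.24) and 1.04 against tw18/+ (0.93 to 1.15), and both intervals include the threshold. With a pseudocount of 1 the value against tw18/+ was 0.96, short of it.

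*Igfbp6*, on Chr 15 from 102144362 to 102149511, prefers IGF2 to IGF1 as its ligand. Its level was 1.57 FPKM in wild type, 1.85 in tw18/+ and 6.23 in tw18/tw18, from about 22, 37 and 123 fragments. The log2 ratio in tw18/tw18 was 1.99 against wild type (1.36 to 2.74) and 1.75 against tw18/+ (1.21 to 2.33). It was the second largest ratio of the 8 genes, from the fewest fragments of those that passed the filter in tw18/tw18.

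*Igfbp1*, a carrier known from liver and from decidualized endometrium in human pregnancy, measured 0.476 FPKM in wild type and 0.034 in tw18/+, from about 10 fragments and 1 fragment, and was listed at 0 in tw18/tw18, where 3 fragments would give an FPKM of 0.106. The log2 ratio of tw18/+ against wild type was -3.80 with a counting interval of -9.25 to -0.99. No ratio is given for tw18/tw18. The gene was at or near the limit of detection in these libraries.

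**Figure D3:**
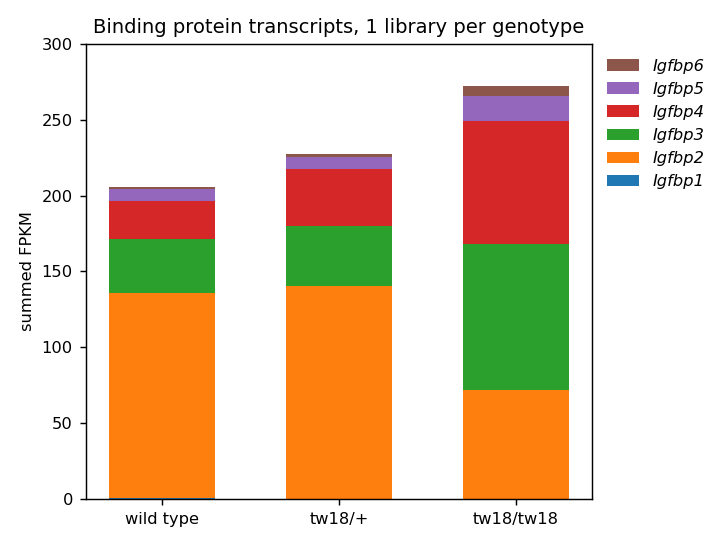
The bars give the summed FPKM of *Igfbp1* to *Igfbp6* in each library (1 library per genotype, no error bars), with 1 colour per gene. The sum is 206 in wild type, 228 in tw18/+ and 272 in tw18/tw18, and the *Igfbp2* segment shrinks in tw18/tw18 while those of *Igfbp3* and *Igfbp4* widen.

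The sum of the 6 binding proteins changed less than its makeup. It was 206 FPKM in wild type, 228 in tw18/+ and 272 in tw18/tw18. *Igfbp2* made up 65.8% of it in wild type, 61.7% in tw18/+ and 26.4% in tw18/tw18. The share of *Igfbp3* was 17.1%, 17.5% and 35.5% and that of *Igfbp4* 12.4%, 16.4% and 29.8% in that order. *Igfbp5* stayed between 3.54% and 6.09%, and *Igfbp6* between 0.764% and 2.29%. Set against the ligands, the binding protein sum was 4.14 times the summed FPKM of *Igf1* and *Igf2* in wild type, 5.05 times in tw18/+ and 2.23 times in tw18/tw18. These are transcript levels, and protein was not measured.

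**Figure D4:**
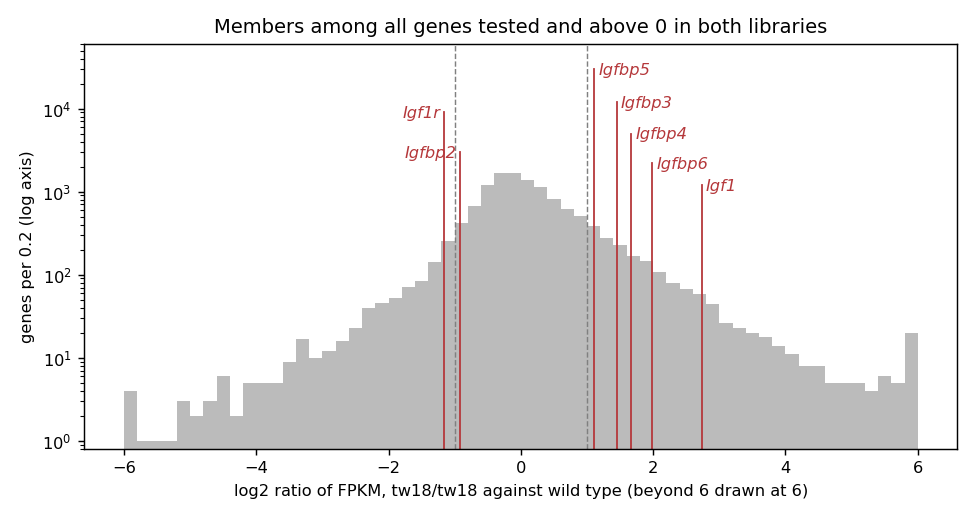
The grey bars count, on a log axis, the 12625 genes tested that were above 0 in both libraries by their log2 ratio of FPKM between tw18/tw18 and wild type, the red lines mark the 7 members that passed the filter, and the dashed lines mark -1 and 1. All 7 lie on the flanks of the distribution, 5 on the right and 2 on the left, and none lies near its centre.

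The 3 values of each member were also compared with those of the 13118 genes at an FPKM of at least 1 in any library, by the distance between their log2(FPKM + 1) values after centring each gene on its mean. With 3 libraries such a likeness is only a description. The nearest genes were *Rgs5* and *Sncg* for *Igf1*, *Dtd1* and *Trmu* for *Igf1r*, and *Tfap4* and *Naa38* for *Igfbp2*. They were *Pik3ap1* and *Speer4e* for *Igfbp3*, *Gzmf* and *Josd2* for *Igfbp4*, *Clic6* and *Atf7* for *Igfbp5*, and *Slc25a45* and *Aldh1a2* for *Igfbp6*. *Rgs5*, nearest to *Igf1*, stood at 1.80, 2.49 and 12.7 FPKM in wild type, tw18/+ and tw18/tw18. Between 32 genes, for *Igf1*, and 507 genes, for *Igfbp5*, lay within a distance of 0.2, and the pattern of *Igf1* had the fewest others close to it. Among the members the closest pair was *Igfbp3* and *Igfbp6*, at a distance of 0.064, followed by *Igf1r* and *Igfbp2* at 0.22. Adding 1 to FPKM shrinks differences at low levels. Without it, the log2 ratio of tw18/tw18 against wild type was 1.45 for *Igfbp3* and 1.99 for *Igfbp6*. Some of the nearest genes were low in every library, such as *Pik3ap1* (no more than 1.76 FPKM) and *Gzmf* (no more than 2.12).

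The genes around the members were read from lists written from general knowledge. Of the 3 imprinted genes of the axis, *Igf2* alone passed the threshold in tw18/tw18. *Grb10*, an adaptor that dampens signaling from IGF1R and the insulin receptor, measured 159 FPKM in wild type, 167 in tw18/+ and 239 in tw18/tw18, a log2 ratio of 0.58. Of the 5 insulin and growth hormone genes, 2 passed the FPKM filter and none the threshold. *Ghr*, the growth hormone receptor that drives *Igf1* in the adult liver, stood at 1.81, 2.42 and 1.97 FPKM in wild type, tw18/+ and tw18/tw18. *Ins1* was listed at 0 in each library.

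Among the 7 genes of the ternary complex, the proteases and their inhibitors, 4 passed the filter, and 2 were higher and 1 lower in tw18/tw18 than in wild type. *Adam12*, a metalloprotease that cuts IGFBP3 and IGFBP5, measured 2.83 FPKM in wild type, 2.28 in tw18/+ and 13.1 in tw18/tw18, a log2 ratio of 2.21. *Stc1*, a stanniocalcin, a family whose members inhibit PAPP-A, had 1.18, 3.27 and 4.32, a log2 ratio of 1.87 in tw18/tw18 and 1.47 in tw18/+. *Htra1*, a serine protease that cuts IGFBP5, had 46.8, 9.72 and 22.1, so that it was lower than wild type in both other libraries. *Stc2* had 7.84, 4.97 and 8.64. *Pappa*, whose protease cuts IGFBP4, had an FPKM between 0.053 and 0.17, and *Pappa2*, whose protease cuts IGFBP5, was listed at 0 in wild type and tw18/+ and at 0.049 in tw18/tw18. *Igfals*, the acid-labile subunit, reached no more than 0.221.

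Of 14 other genes whose proteins carry an IGFBP-type N-terminal domain, 8 passed the filter, and 2 were higher and 1 (*Htra1*) lower in tw18/tw18 than in wild type. *Igfbp7*, a low-affinity relative found around vessels, measured 3.56 FPKM in wild type, 5.56 in tw18/+ and 34.0 in tw18/tw18, a log2 ratio of 3.26, larger than that of any of the 8 members. *Kazald1* had 1.84, 4.17 and 5.25, a log2 ratio of 1.52.

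All 32 genes listed between the receptor and AKT, mTOR and FOXO passed the filter, and 0 were higher or lower by the threshold in tw18/tw18 than in wild type, with a median difference of log2(FPKM + 1) of 0.0045. The highest log2 ratio of the list was 0.99, for *Pik3r1*, a regulatory subunit of PI3K, and the count of 0 depended on the scaling. With ratios centred on their median *Pik3r1* passed the threshold, at 1.04, and with libraries set to equal FPKM sums both *Pik3r1*, at 1.20, and *Irs4*, an insulin receptor substrate, at 1.11, were higher. *Eif4ebp1*, the translation repressor that mTOR phosphorylates, was the most abundant of them, with an FPKM of 99.6, 121 and 105 in wild type, tw18/+ and tw18/tw18. *Rheb*, the activator of mTOR, had 42.3, 63.1 and 52.8. Against tw18/+, 1 of the 32 was higher, *Foxo3*, with a log2 ratio of 1.45. PP2A acts on AKT and other kinases of this pathway as proteins, and phosphorylation was not measured in these libraries.

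**Figure D5:**
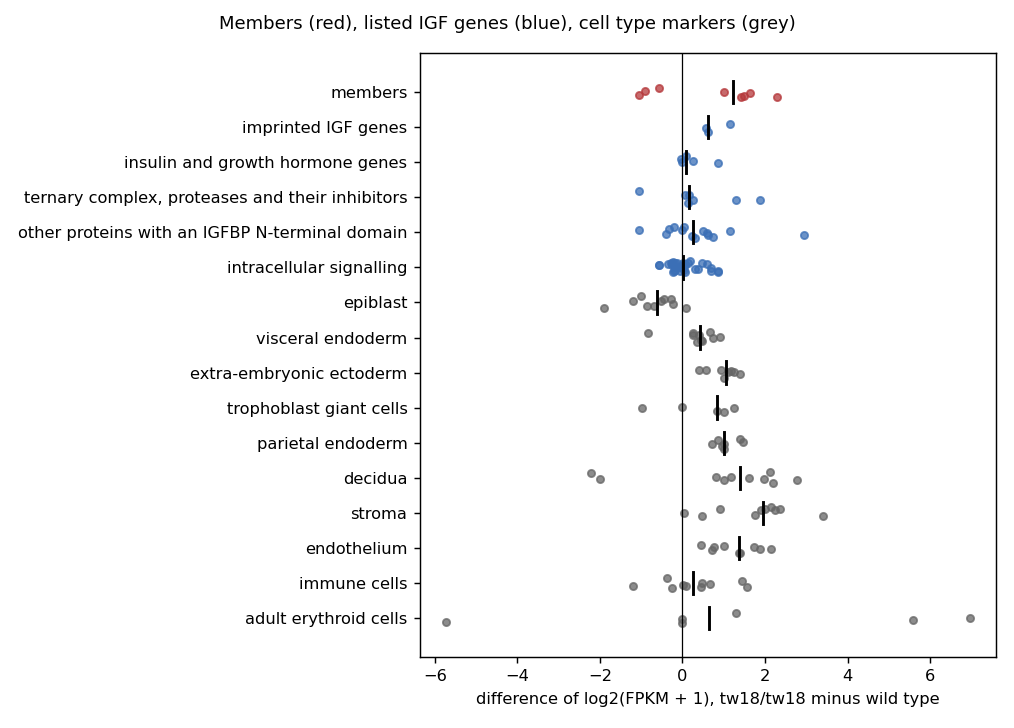
The horizontal axis gives the difference of log2(FPKM + 1) between tw18/tw18 and wild type for each gene (1 point), grouped by list on the vertical axis, with a black bar at the median of the list over all its genes in the table. The 32 signaling genes sit around 0 with a median of 0.0045, the 8 members split into 5 above 1 and 3 below 0, and the stroma markers have the highest median of all lists, 1.96.

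Markers of other cell types also differed between the libraries, and not all lists had the same order of libraries. Of 10 stroma markers 8 were higher in tw18/tw18 than in wild type, and their summed FPKM was 86.2 in wild type, 110 in tw18/+ and 490 in tw18/tw18. *Col1a2* had 7.29, 6.63 and 35.5, and *Col3a1* had 5.44, 5.58 and 31.9. Of 10 decidua markers 7 were higher and 2 lower. The 2 lower ones, the decidual prolactins *Prl8a2* and *Prl3c1*, made the sum largest in wild type (1812, against 327 in tw18/+ and 928 in tw18/tw18). *Prl8a2* measured 1504 FPKM in wild type, 155 in tw18/+ and 377 in tw18/tw18, whereas *Hoxa11* had 3.67, 6.87 and 30.8. None of the stroma or decidua markers was listed at 0 in any library. The same held for the endothelium, parietal endoderm and extra-embryonic ectoderm markers. Over all 23421 genes, 8328 were listed at 0 in wild type, 7211 in tw18/+ and 7178 in tw18/tw18. Of 9 endothelium markers 6 were higher, with a sum of 58.5, 47.2 and 123. Of 7 parietal endoderm markers 5 were higher (329, 382 and 758). Among 8 extra-embryonic ectoderm markers 7 passed the FPKM filter and 6 were higher (93.0, 100.2 and 190.1). Among 5 trophoblast giant cell markers 4 passed the filter, 2 were higher and 1 lower (186, 98.5 and 359). Only 5 of 10 immune markers passed it, and 2 were higher and 1 lower (22.4, 11.9 and 33.4). With 4 of 6 adult erythroid markers past the filter, 3 were higher and 1 lower (52.5, 56.3 and 177). The lower one, *Hba-a1*, had 52.2, 27.1 and 0.007, whereas *Hba-a2* had 0.020, 26.9 and 127. How fragments were divided between these 2 genes was not tested.

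Markers of the labelled tissue were abundant in each library. Of 10 epiblast markers 3 were lower and none higher, with a summed FPKM of 2405 in wild type, 2612 in tw18/+ and 1346 in tw18/tw18. *Pou5f1* had an FPKM of 628, 721 and 274, and *Dnmt3b* had 719, 733 and 359. Of 10 visceral endoderm markers none passed the threshold, with a sum of 906, 892 and 1173. The epiblast sum was thus lowest in the library in which *Igf1r* and *Igfbp2* were lowest. The stroma sum was highest in the library in which *Igf1* and *Igfbp3* to *Igfbp6* were highest. This order was not particular to stroma. The visceral endoderm, extra-embryonic ectoderm, trophoblast giant cell, parietal endoderm, endothelium, immune and erythroid sums were also highest in tw18/tw18, whereas the decidua sum was highest in wild type. The part of these cell types in the values of the members was not tested, and in bulk libraries fewer cells of a type and less RNA per cell cannot be told apart.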

How the data were processed

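RNA from E6.5 embryos of 3 genotypes was sequenced in 1 library each, with paired-end reads of 50 bp. TopHat was used by the authors for mapping to the mm10 build (GRCm38), and Cuffdiff (Cufflinks 2.2.1, per the labels) gave the deposited FPKM values. The gene annotation, library normalization and number of embryos per library are not given in the sources used here. Genotypes were taken from the labels and matched to the column names. Values were computed in Python 3.11.15 (scipy 1.17.1, pandas 2.3.3, numpy 2.4.6) and plotted with matplotlib 3.10.9.

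The members and the gene lists were chosen with earlier results of these data known. Listed genes to be named were up to 4 per list past the threshold with the largest differences, the 2 most abundant ones and, beyond this rule, examples chosen after their values were seen (such as *Ghr*, *Stc2*, *Pappa*, *Igfals*, *Igf2r*, *Pik3r1* and *Foxo3*). For each member, the 2 genes with the nearest pattern were named. Depth was estimated from the low values of genes with 1 annotated transcript, allowing 150 bp for the fragment. Between 84.1% and 87.3% of these values lay within 0.2 of a whole fragment. This share is no separate check, because the spacing was chosen to fit the same values best. Positions and transcript lengths came from GENCODE M21, and promoters from RefSeq, which held all 8 members. The calls and the spacing were tested on simulated data. Of 146 listed genes 145 were in the table.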

Additional observations from a re-analysis of the deposited data

How the results depend on the processing

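With 1 library per genotype, no replicate could be left out. No paired analysis was possible because each genotype has 1 library. The alternatives were pseudocounts of 1 and 0.1, no FPKM filter, a filter at 5, centring on the median log2 ratio, equal FPKM sums and, chosen after seeing the data, equal sums without *Lars2*. The 5 members higher in tw18/tw18 against wild type were the same under all of them, and against tw18/+ the same 5 were higher except with a pseudocount of 1, which left 4 (*Igfbp5* moved to 0.96). The share of all genes tested that was higher ran from 8.96% (filter at 5) to 24.2% (no filter) against wild type. Against tw18/+ it ran from 9.18% (pseudocount of 1) to 21.4% (no filter). Without a filter, *Igfbp1* joined the lower members, giving 2 against wild type, 1 in tw18/+ against wild type and 1 in tw18/tw18 against tw18/+. The shares of all genes that were lower without a filter were 10.8%, 9.91% and 12.1% in that order. Under equal sums, with or without *Lars2*, 0 members were lower in tw18/tw18 against wild type, since *Igf1r* moved to -0.95, or -0.98 without *Lars2*, short of the threshold. Of all genes tested, 4.80% were lower there under equal sums and 5.11% without *Lars2*. The 32 signalling genes, put through the same alternatives after seeing the data, gave 1 higher gene in tw18/tw18 against wild type with median centring and 2 under either form of equal sums, and 0 under the others. Of all genes tested, 16.1% were higher with median centring, 20.3% under equal sums and 19.3% without *Lars2*. The *Igf1* interval on the longest transcript was also chosen after seeing the data. Of 22 log2 ratios of single members, 10 left their counting interval under equal sums and 3 with a pseudocount of 1, and none of those past the threshold changed direction.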
